A study of Mus musculus with 12 samples.

Results

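Transcripts of 7 genes were followed that encode a pair of adhesion molecules on T cells and the enzymes that finish their sugar chains, of 17523 genes measured. They were taken as a fixed list by gene symbol: Cd44, Selplg, Fut7, Gcnt1, St3gal4, St3gal6 and St6gal1, all of which were in the table and passed the filter on low values. RNA was sequenced from CD4+ T cells of the spleens of Gr/fr mice on the C57BL/6 background at steady state, in 4 groups of 3 libraries each. All 4 groups carried the same alleles: a Csf2 allele, the gene of GM-CSF, from which iCre recombinase and BFP are also made under the endogenous Csf2 promoter, and a Rosa26 eYFP allele that iCre switches on for good. YFP+ cells therefore express GM-CSF or did so at some time, or descend from cells that did, and YFP- cells have no such history that the reporter recorded. Naïve cells were sorted as CD44- and effector memory (TEM) cells as CD44hi, and each was split into YFP- and YFP+ fractions. The age and sex of the mice behind each library are not given in the labels, and nothing there says which libraries came from one animal.

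Leukocytes leave the blood after selectins on vessel walls catch sugar ligands on their surface. PSGL-1, the product of Selplg, is the main ligand of P-selectin, and CD44, otherwise the receptor of hyaluronan, carries E-selectin ligands when it is suitably glycosylated. The ligand is a sialyl Lewis X structure on a branched O-glycan: Gcnt1 (C2GnT1) makes the core 2 branch, a sialyltransferase such as St3gal4 or St3gal6 adds sialic acid in alpha-2,3 linkage, and Fut7 adds the last fucose. St6gal1 adds sialic acid in alpha-2,6 linkage, which that structure does not use. Naïve T cells are known to lack the finished ligand, and effector cells to acquire it.

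The 250 bases before the transcription start are shown for the sialyltransferase genes that separated the TEM fractions in opposite directions and for the 2 genes that differed most between TEM and naïve cells. The sequences are those of RefSeq (build GRCm38.p6, the same assembly as mm10), which gave promoters for 6 of the 7 genes. Each runs 5′ to 3′ on the strand of its gene, and capitals mark the letters CACCC, or GGGTG for the other strand, which the KLF family can bind.
St3gal6, upstream start (chr16:58524254-58524503, minus strand): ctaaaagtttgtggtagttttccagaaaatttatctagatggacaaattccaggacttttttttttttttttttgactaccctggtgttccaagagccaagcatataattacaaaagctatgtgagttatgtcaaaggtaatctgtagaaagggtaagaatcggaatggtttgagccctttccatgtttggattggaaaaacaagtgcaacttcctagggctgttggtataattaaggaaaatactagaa
St3gal6, downstream start (chr16:58523427-58523676, minus strand): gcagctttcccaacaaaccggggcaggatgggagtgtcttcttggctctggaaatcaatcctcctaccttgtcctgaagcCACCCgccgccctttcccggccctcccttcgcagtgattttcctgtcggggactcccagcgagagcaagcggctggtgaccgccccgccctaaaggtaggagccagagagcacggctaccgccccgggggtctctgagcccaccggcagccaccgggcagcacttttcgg
St3gal4 (chr9:35116865-35117114, minus strand): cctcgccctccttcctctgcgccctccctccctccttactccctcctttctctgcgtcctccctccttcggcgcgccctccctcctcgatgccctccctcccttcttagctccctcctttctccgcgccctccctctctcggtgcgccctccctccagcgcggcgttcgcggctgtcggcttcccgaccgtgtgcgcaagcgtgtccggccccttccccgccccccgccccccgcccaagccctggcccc
Gcnt1, upstream start (chr19:17372845-17373094, minus strand): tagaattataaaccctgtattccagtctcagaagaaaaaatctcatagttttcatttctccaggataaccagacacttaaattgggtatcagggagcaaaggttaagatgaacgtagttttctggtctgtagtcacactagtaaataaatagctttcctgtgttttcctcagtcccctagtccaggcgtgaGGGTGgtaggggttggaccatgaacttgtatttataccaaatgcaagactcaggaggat
Fut7, upstream start (chr2:25422992-25423241, plus strand): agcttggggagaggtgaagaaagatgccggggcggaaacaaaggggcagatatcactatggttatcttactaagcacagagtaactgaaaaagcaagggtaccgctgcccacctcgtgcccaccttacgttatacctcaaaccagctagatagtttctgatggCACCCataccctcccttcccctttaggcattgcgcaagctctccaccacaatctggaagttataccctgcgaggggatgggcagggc

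The following 4 short motifs were searched on both strands over all starts of these genes: GGTGTG (the T-box core), CACCC (KLF), GTAAACA (FOXO) and TGTGGTT (RUNX). CACCC was found before Fut7, Gcnt1, St3gal6 and St6gal1, but 52.0% of 32851 promoters of this length hold it. GGTGTG was found before St6gal1, against 16.3% of all promoters. These shares are per promoter, while the genes with a match have 2 or 3 starts each and so more windows in which to match. GTAAACA, held by 3.17% of promoters, and TGTGGTT, held by 4.40%, were not found in these windows. The window of St3gal4 was 72.8% G and C, where the median of all promoters was 52.4%. That of the upstream St3gal6 start was 34.8% and that of the downstream start 64.4%. Which start these cells use was not tested. A motif match here is a run of letters and no evidence of binding, and T-box and KLF matches overlap wherever CACACCC occurs.

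Depth on genes ranged from 40974124 to 57822269 reads per library, and values are normalised read counts, reads divided by the size factor of the library. The labelled identity was checked against marker genes. All 8 T cell markers were present in every group, with summed counts from 222861 to 311776 per library. In TEM YFP- libraries, 7 markers of conventional dendritic cells summed to between 9371 and 19371, against 504 to 1132 in TEM YFP+ libraries, 78.3 to 134 in naïve YFP- libraries and 95.8 to 353 in naïve YFP+ libraries. Of these 7 markers, 6 were lower in TEM YFP+ cells, as were 6 of 8 markers of plasmacytoid dendritic cells. NK cell markers went the other way, from 738 to 937 in TEM YFP- libraries and from 2739 to 3596 in TEM YFP+ libraries, with 3 of 4 higher. Ncr1, which defines NK cells, was listed at 0 in all TEM YFP- libraries and at 6.21 to 56.1 in TEM YFP+ libraries. Both CD8 markers were lower in TEM YFP+ cells, and 2 of 8 B cell markers were higher. Neutrophil markers summed to between 1.02 and 8.89 in TEM YFP- and between 26.9 and 138 in TEM YFP+ libraries, with 0 of the 2 tested called. Of 7 monocyte and macrophage markers, Adgre1 (-2.99) and Cd68 (-2.67) were lower and Ccr2 (1.78) was higher on the log2 scale, and their sums overlapped between the TEM fractions. Naïve YFP+ replicate 2 stood apart from its group, with the highest sums of these markers (3586, group median 554), of erythroid markers (2537, median 596) and of neutrophil markers (259, median 7.42). Counts of the 7 genes called are therefore also given without it, where naïve YFP+ is compared with a single other group and in the interaction. Counts of the pathway lists are given with all libraries only. The part of these other transcripts in the results below was not tested. In bulk RNA, fewer cells of a type and less RNA per cell cannot be told apart.

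**Figure D1:**
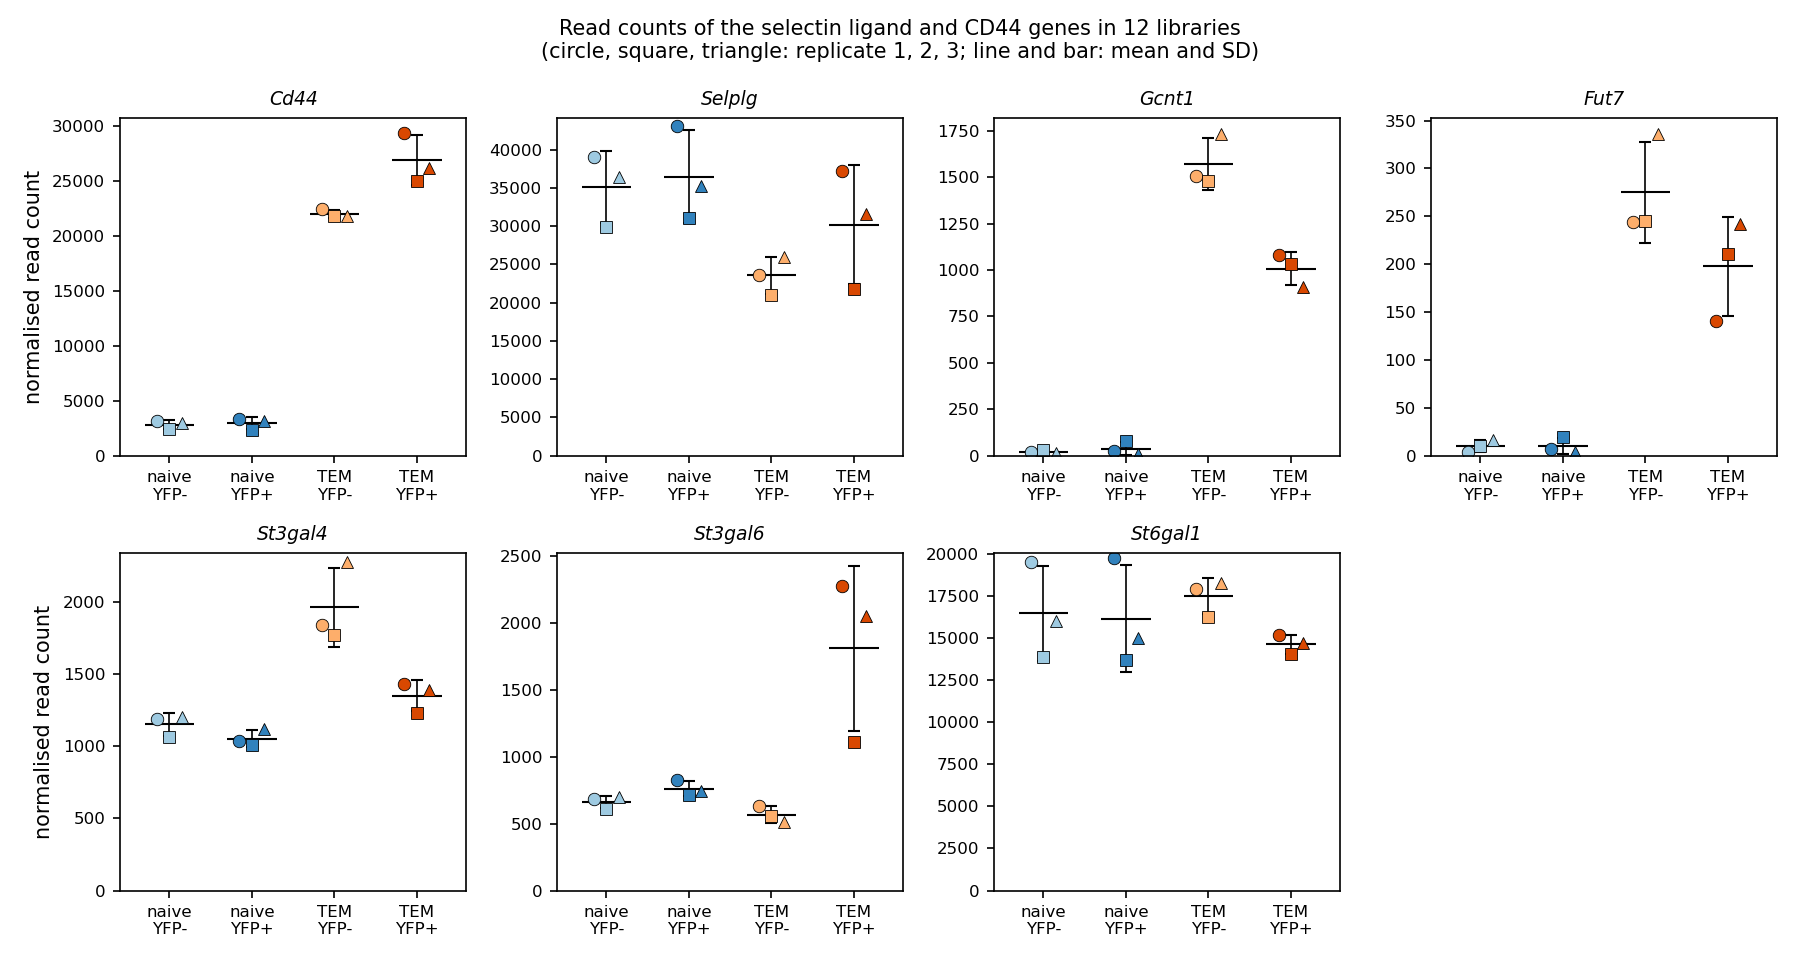
Normalised read counts of the 7 genes (y axis, from 0) in each of the 12 libraries, by group (x axis); lines are means and bars SDs of 3 libraries. St3gal6 is high in the 3 TEM YFP+ libraries, while Gcnt1 and Fut7 are near 0 in all naïve libraries.

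The effect of GM-CSF history was asked first within TEM cells, by comparing YFP+ with YFP- libraries. St3gal6 rose 3.06-fold and St3gal4 fell to 0.691 of its level, while the other 5 genes did not pass the threshold of an adjusted p of 0.05 (limma, Benjamini-Hochberg adjusted over 15587 genes). The count was thus 2 of 7 genes, 1 higher and 1 lower, where 6.97% of all genes tested passed, 359 higher and 728 lower. The replicate numbers were taken to pair the YFP+ and YFP- libraries, from correlated deviations and not from a label. The main fit has no block. With the replicate number as a block 1869 genes passed in place of 1087. The same 2 of these genes were called with that block.

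St3gal6 encodes a sialyltransferase that adds alpha-2,3-linked sialic acid to lactosamine chains (chr16:58469742-58524260, minus strand). It had 633, 556 and 509 normalised counts in the TEM YFP- libraries (replicates 1, 2 and 3) and 2270, 1107 and 2048 in the TEM YFP+ libraries. Every TEM YFP+ library lay above every TEM YFP- library, and replicate 2 was the lowest of the YFP+ libraries. The log2 fold change was 1.61 (SE 0.21, 95% interval 1.15 to 2.08, adjusted p = 0.000679). Within replicates 1, 2 and 3 the difference was 1.84, 0.99 and 2.01 on the log2 scale, higher in 3 of 3 pairs. Over 24 alternative settings it stayed between 1.42 and 1.93 with an adjusted p of at most 0.00648. Dcbld2, which overlaps St3gal6 on the opposite strand, had 127 to 186 normalised counts in TEM YFP- and 128 to 163 in TEM YFP+ libraries.

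St3gal4 encodes another alpha-2,3-sialyltransferase that acts on lactosamine (chr9:35046576-35116864, minus strand). It had 1841, 1769 and 2277 normalised counts in TEM YFP- libraries and 1430, 1228 and 1392 in TEM YFP+ libraries. The groups did not overlap, and all 3 YFP+ libraries were lower. The log2 fold change was -0.53 (SE 0.11, 95% interval -0.77 to -0.30, adjusted p = 0.00906), lower in 3 of 3 pairs. Over the 24 settings it lay between -0.60 and -0.42 with an adjusted p of at most 0.0472. The overlapping gene 4930581F22Rik had 134 to 212 normalised counts in TEM YFP- and 124 to 176 in TEM YFP+ libraries.

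Because these 2 enzymes act on the same kind of chain and moved oppositely, their balance was computed inside each library, where no scaling factor enters. Since the ratio was chosen from these 2 calls, its separation of the TEM fractions restates them and is no further evidence. Per kilobase of exon, St3gal6 made up 14.0, 13.0 and 9.58% of the sum of St3gal4 and St3gal6 in the TEM YFP- libraries and 42.9, 29.9 and 41.1% in the TEM YFP+ libraries. The naïve YFP- libraries held 21.4, 21.4 and 21.6% and the naïve YFP+ libraries 27.5, 25.1 and 23.9%. The share was thus lowest in TEM YFP-, highest in TEM YFP+, and intermediate in both naïve groups, with no overlap between any of the 4 groups. The sum of both genes was 763 ± 87.2 normalised counts per kb (SD, n = 3) in TEM YFP- and 755 ± 137 in TEM YFP+ libraries, ranges that overlapped.

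**Figure D2:**
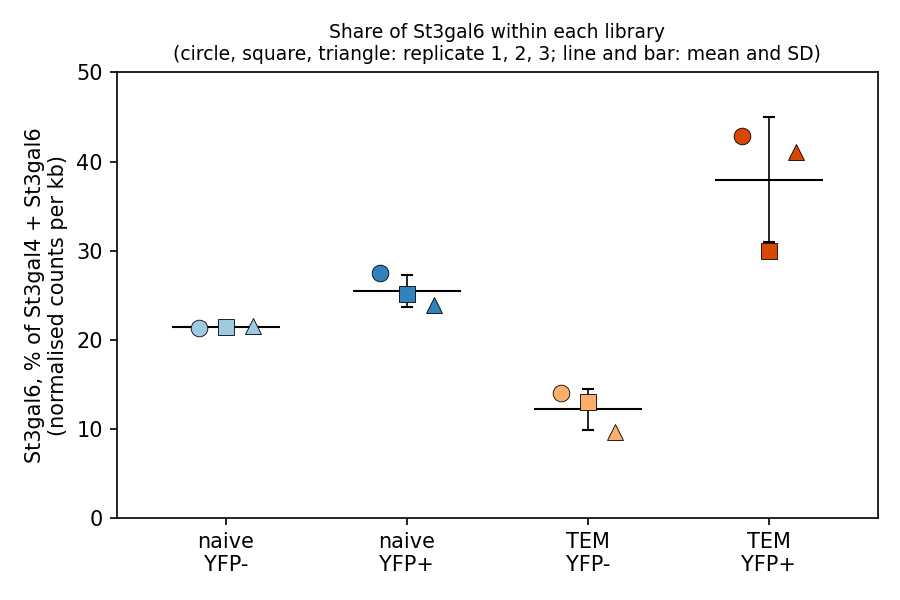
St3gal6 as a percentage of St3gal4 plus St3gal6, in normalised counts per kb of exon (y axis), in each of the 12 libraries by group (x axis); lines are means and bars SDs of 3 libraries. TEM YFP- libraries sit between 9.58 and 14.0% and TEM YFP+ libraries between 29.9 and 42.9%.

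Gcnt1 and Fut7 were lower in all TEM YFP+ libraries than in any TEM YFP- library but did not pass the threshold. The share of all genes that separate in this way was not computed. Gcnt1, the core 2 branching enzyme (chr19:17326141-17372844, minus strand), had 1504, 1480 and 1733 normalised counts in TEM YFP- libraries and 1079, 1035 and 910 in TEM YFP+ libraries. The groups were well separated, with a log2 difference of -0.64 (SE 0.54, 95% interval -1.81 to 0.53, adjusted p = 0.672). The SE was set in a fit that included the naïve libraries, where this gene is near 0 and scatters widely on the log scale. In a fit of the 6 TEM libraries alone the SE was 0.11 and the adjusted p 0.0089, the only 1 of the 24 settings in which Gcnt1 was called. Fut7, the fucosyltransferase of leukocyte selectin ligands (chr2:25422351-25426374, plus strand), had 244, 245 and 336 normalised counts in TEM YFP- libraries and 141, 210 and 242 in TEM YFP+ libraries. Its groups did not overlap, although TEM YFP+ replicate 3 came close to the lowest YFP- library, and the log2 difference was -0.49 (SE 0.57, 95% interval -1.73 to 0.74, adjusted p = 0.789).

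The carriers of the ligand differed less. Cd44 (chr2:102811141-102901669, minus strand) had 22433, 21833 and 21778 normalised counts in TEM YFP- libraries and 29383, 24987 and 26214 in TEM YFP+ libraries, where every library was higher. Its log2 difference was 0.28 (SE 0.13, 95% interval -0.01 to 0.58, adjusted p = 0.312). Selplg (chr5:113817798-113832528, minus strand) had 23660, 21061 and 25971 normalised counts in TEM YFP- libraries and 37192, 21836 and 31569 in TEM YFP+ libraries, which overlapped through replicate 2. Its log2 difference was 0.33 (SE 0.19, 95% interval -0.08 to 0.74, adjusted p = 0.448). Both passed under DESeq2 on the recovered reads with the replicate block, with an adjusted p of 0.0217 for Cd44 and 0.0143 for Selplg. That setting called 4 of the 7 genes and 2411 of all genes, where the main fit called 1087. St6gal1, the alpha-2,6-sialyltransferase (chr16:23224729-23360350, plus strand), had 17929, 16279 and 18268 normalised counts in TEM YFP- libraries and 15177, 14045 and 14704 in TEM YFP+ libraries, all lower. The log2 difference was -0.26 (SE 0.14, 95% interval -0.56 to 0.05, adjusted p = 0.429), and it passed under quantile normalisation alone (adjusted p = 0.0287).

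**Figure D3:**
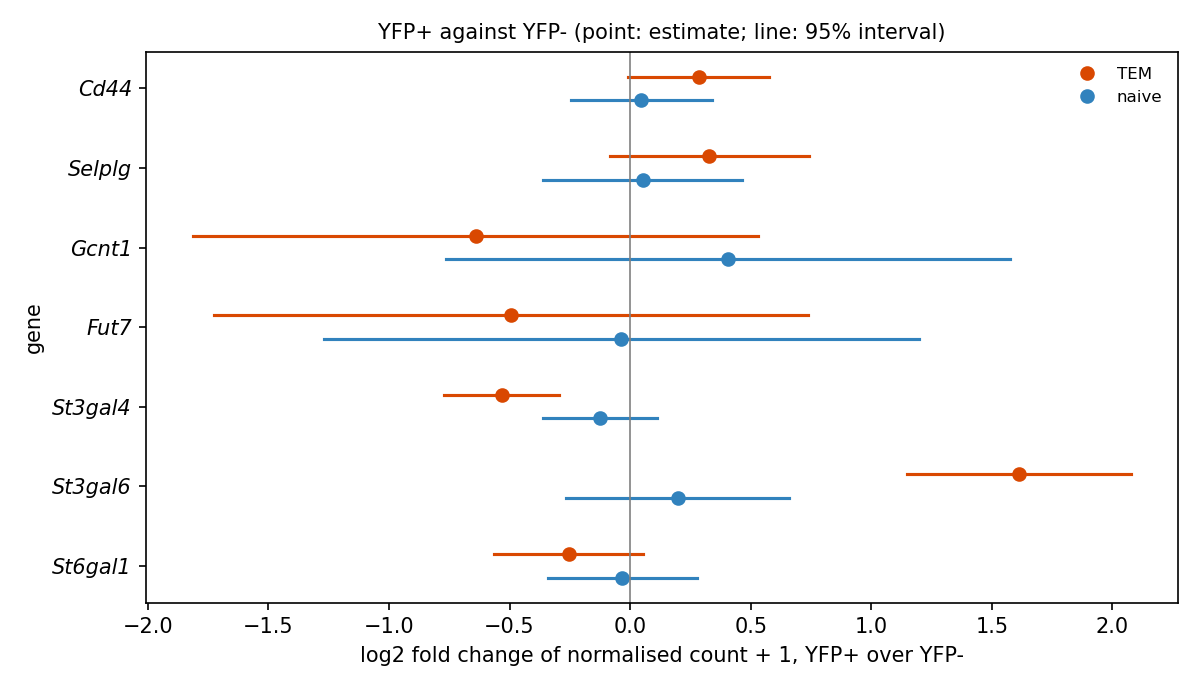
Log2 fold change of YFP+ over YFP- (x axis) for the 7 genes (y axis), in TEM and naïve cells; points are estimates and lines 95% intervals. In TEM cells the intervals of St3gal6 and St3gal4 lie off 0, and in naïve cells every interval spans 0.

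In naïve cells the same comparison found 0 of 7 genes past the threshold (limma), where 0.00642% of all genes, 1 gene, passed. At an unadjusted p of 0.05 or less there were 518 genes, none of them among these 7. Also 0 of 7 were called by edgeR and by DESeq2 on the recovered reads, where 2 and 14 of all genes passed. With the replicate block 6 genes passed, and 0 of these 7. Without naïve YFP+ replicate 2 the count was also 0 of 7, where 1 gene passed, and the difference of Gcnt1 turned from 0.41 to -0.35 (adjusted p = 1 in limma). St3gal6 had 681, 612 and 697 normalised counts in naïve YFP- libraries and 826, 715 and 740 in naïve YFP+ libraries. The YFP+ libraries lay above the YFP- libraries here as well, with a log2 difference of 0.20 (SE 0.21, 95% interval -0.27 to 0.66, adjusted p = 1). St3gal4 had 1187, 1062 and 1202 normalised counts in naïve YFP- and 1034, 1008 and 1117 in naïve YFP+ libraries, with overlap. For the other 5 genes the log2 differences lay between -0.04 (Fut7) and 0.41 (Gcnt1).

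The YFP effect in TEM cells was next set against that in naïve cells, as an interaction. It passed for 1 of 7 genes, St3gal6, where 3.55% of all genes passed, 554 genes. With the replicate block 890 genes passed, and again 1 of these 7. Without naïve YFP+ replicate 2 it was also 1 of 7, where 465 genes passed. The YFP effect on St3gal6 was larger in TEM cells by 1.42 on the log2 scale (SE 0.30, 95% interval 0.76 to 2.07, adjusted p = 0.0219). That call was lost in 5 of 23 settings, without the variance trend and without naïve YFP- replicate 1, naïve YFP- replicate 3, TEM YFP+ replicate 3 or TEM YFP- replicate 3, the last with the highest adjusted p (0.0705). For St3gal4 the interaction was -0.41 (SE 0.15, adjusted p = 0.255), so a difference between the gates was not shown, and with DESeq2 and the replicate block its adjusted p was 0.0204.

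TEM cells were then compared with naïve cells, in YFP- and in YFP+ libraries. Gcnt1 and Fut7 went from near 0 in naïve cells to well above that level in TEM cells, St3gal4 was modestly higher, and Selplg was lower where it changed. Cd44 is left as a description, since the sort used its protein. Of the other 6 genes, 4 passed in YFP- cells (Gcnt1, Fut7 and St3gal4 higher, Selplg lower), where 49.8% of all genes passed. In YFP+ cells 4 of 6 passed (Gcnt1, Fut7, St3gal4 and St3gal6, all higher), against 41.4% of all genes, 6453 genes. Without naïve YFP+ replicate 2, St3gal4 was lost and 3 of 6 passed, where 6223 of all genes passed. Averaged over YFP status 5 of 6 passed, all but St6gal1, against 59.5%. Under quantile normalisation the averaged calls of Selplg (-0.18, adjusted p = 0.11) and St3gal6 (0.21, adjusted p = 0.259) were lost, and St6gal1 turned from -0.013 to 0.15 and passed (adjusted p = 0.046). The averaged comparison uses the libraries of both others, so it is no further evidence.

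Gcnt1 had 18.4, 29.7 and 13.8 normalised counts in naïve YFP- libraries and 24.7, 76.7 and 9.30 in naïve YFP+ libraries. Every TEM library, at 910 or more, lay far above them. The log2 fold change was 6.25 (SE 0.54, adjusted p = 1.27e-06) in YFP- cells and 5.20 (SE 0.54, adjusted p = 8.45e-06) in YFP+ cells. Fut7 had 3.46, 10.6 and 16.1 normalised counts in naïve YFP- libraries and 7.42, 19.7 and 3.72 in naïve YFP+ libraries, against at least 141 in every TEM library. It was thus higher by 4.83 on the log2 scale (SE 0.57, adjusted p = 1.68e-05) in YFP- and 4.37 (SE 0.57, adjusted p = 5.54e-05) in YFP+ cells. Both genes were called under all 24 settings in each fraction. The added 1 in the log scale compresses folds at counts this low.

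The sialyltransferases split by fraction. St3gal4 was higher in TEM than in naïve cells by 0.76 (SE 0.11, adjusted p = 8.55e-05) on the log2 scale in YFP- cells and by 0.36 (SE 0.11, adjusted p = 0.0195) in YFP+ cells, where the call was lost under quantile normalisation (adjusted p = 0.0916) and without naïve YFP+ replicate 2, TEM YFP+ replicate 1 or TEM YFP+ replicate 3 (adjusted p up to 0.0699). St3gal6 was -0.23 (SE 0.21, adjusted p = 0.395) in YFP- cells, with overlapping groups, and 1.18 (SE 0.21, adjusted p = 0.000712) in YFP+ cells, where all TEM libraries were higher. The order of St3gal6 levels was TEM YFP-, naïve YFP-, naïve YFP+ and TEM YFP+, and the first pair overlapped. St6gal1 ranged from 13704 to 19740 normalised counts in naïve libraries and from 14045 to 18268 in TEM libraries, overlapping in both fractions.

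The carriers went in different directions. Selplg had 39050, 29835 and 36436 normalised counts in naïve YFP- libraries, all above the TEM YFP- libraries, and changed by -0.57 on the log2 scale (SE 0.19, adjusted p = 0.0239). This call was lost in 5 of 24 settings, under quantile normalisation and without naïve YFP- replicate 1, naïve YFP- replicate 3, TEM YFP- replicate 1 or TEM YFP- replicate 2, with an adjusted p of up to 0.0885. In YFP+ cells it was -0.29 (SE 0.19, adjusted p = 0.24), with overlap. Cd44 had 2397 to 3113 normalised counts in naïve YFP- and 2334 to 3372 in naïve YFP+ libraries, so TEM libraries held 7.82-fold more in YFP- and 9.22-fold more in YFP+ cells. The transcript of this sorting marker thus followed the gates without overlap. Quantile normalisation changed the log2 differences of all genes by a median of -0.37 in YFP- and -0.22 in YFP+ cells. Selplg (-0.57 to -0.33) and St6gal1 (0.10 to 0.29) moved the other way in YFP- cells. There Selplg lost its call, while St3gal6 (-0.62) and St6gal1 gained a call.

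**Figure D4:**
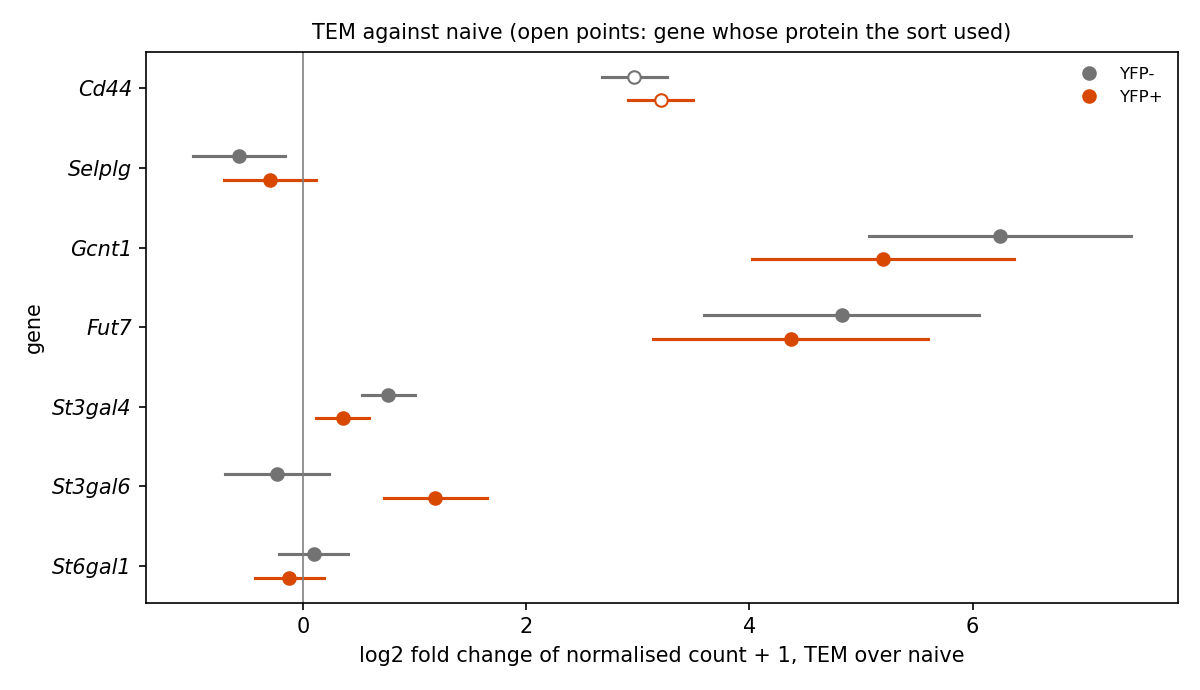
Log2 fold change of TEM over naïve (x axis) for the 7 genes (y axis) in YFP- and YFP+ cells; points are estimates, lines 95% intervals, and open points mark Cd44, whose protein the sort used. Gcnt1 and Fut7 have fold changes between 4.37 and 6.25, and St6gal1 lies near 0.

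Levels of different genes were set side by side per kilobase of exon (GENCODE M21). In naïve YFP- cells Selplg had 8218 ± 1112 normalised counts per kb (SD, n = 3), St6gal1 3351 ± 577, Cd44 418 ± 56.4, St3gal4 394 ± 26.3, St3gal6 107 ± 7.29, Fut7 4.27 ± 2.70 and Gcnt1 3.59 ± 1.42. Cd44 and St3gal4 overlapped there, and so did Fut7 and Gcnt1. In TEM YFP+ cells the order was Selplg with 7069 ± 1819 normalised counts per kb, Cd44 with 3964 ± 335, St6gal1 with 2978 ± 116, St3gal4 with 462 ± 36.6, St3gal6 with a mean of 293 (179 to 368), Gcnt1 with 175 ± 15.2 and Fut7 with 84.0 ± 22.1. Here St3gal6 and Gcnt1 overlapped. In TEM YFP- cells St3gal6 was the lowest of the 7, at 91.7 ± 10.1 normalised counts per kb. It was just below Fut7 at 117 ± 22.5 and well below Gcnt1 at 273 ± 24.2. Fut7 was thus the least abundant of the enzymes in TEM YFP+ cells, and St6gal1 exceeded every other enzyme in each group.

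The wider pathway was read from lists of selectins, ligand carriers, hyaluronan and CD44 partners, and enzymes and transporters for O-glycans, lactosamine, fucose, sialic acid, sulfate and shedding. Without the 7 genes they held 102 genes, 96 in the table and 91 tested. Between the TEM fractions 3 were higher and 3 lower in YFP+ cells, a share near the 6.97% of all genes that passed, with a median log2 difference of 0.02 against -0.01 over all genes tested. The higher genes were Galnt2, which starts O-glycans (0.41, SE 0.09, adjusted p = 0.0171), St6galnac3, a sialyltransferase (1.06, SE 0.28, adjusted p = 0.0363), and Mmp9, a secreted protease (4.04, SE 0.89, adjusted p = 0.0148). Mmp9 had 179 to 392 normalised counts in TEM YFP- and 2304 to 8277 in TEM YFP+ libraries. The part of neutrophil transcripts, whose marker sums were also higher there, was not tested. In naïve cells 0 of the 91 passed (limma).

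The 3 lower genes were Fut4, the other leukocyte alpha-1,3-fucosyltransferase (-3.09, SE 0.65, adjusted p = 0.011), B4galt6, a galactosyltransferase of glycolipids (-3.76, SE 0.61, adjusted p = 0.00231), and B3gnt8, a lactosamine-extending enzyme (-3.19, SE 0.46, adjusted p = 0.00113). Fut4 had 362 to 944 normalised counts in TEM YFP- and 32.1 to 105 in TEM YFP+ libraries. B4galt6 had 1369 to 2760 and 66.3 to 202. These 3 genes fell in the libraries in which 6 of 7 conventional and 6 of 8 plasmacytoid dendritic cell markers also fell. Itgax went from 5454 to 10593 down to 245 to 607 and Siglech from 1412 to 3367 down to 26.9 to 118. The listed markers Xcr1, Pacsin1 and Ccr9 did not pass, and Ccr9 went the other way (1.28, adjusted p = 0.0956, limma). The part of dendritic cell transcripts in the change of Fut4, B4galt6, B3gnt8 and St3gal4 was not tested. The interaction passed for 0 higher and 2 lower genes of the lists, B4galt6 and B3gnt8.

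**Figure D5:**
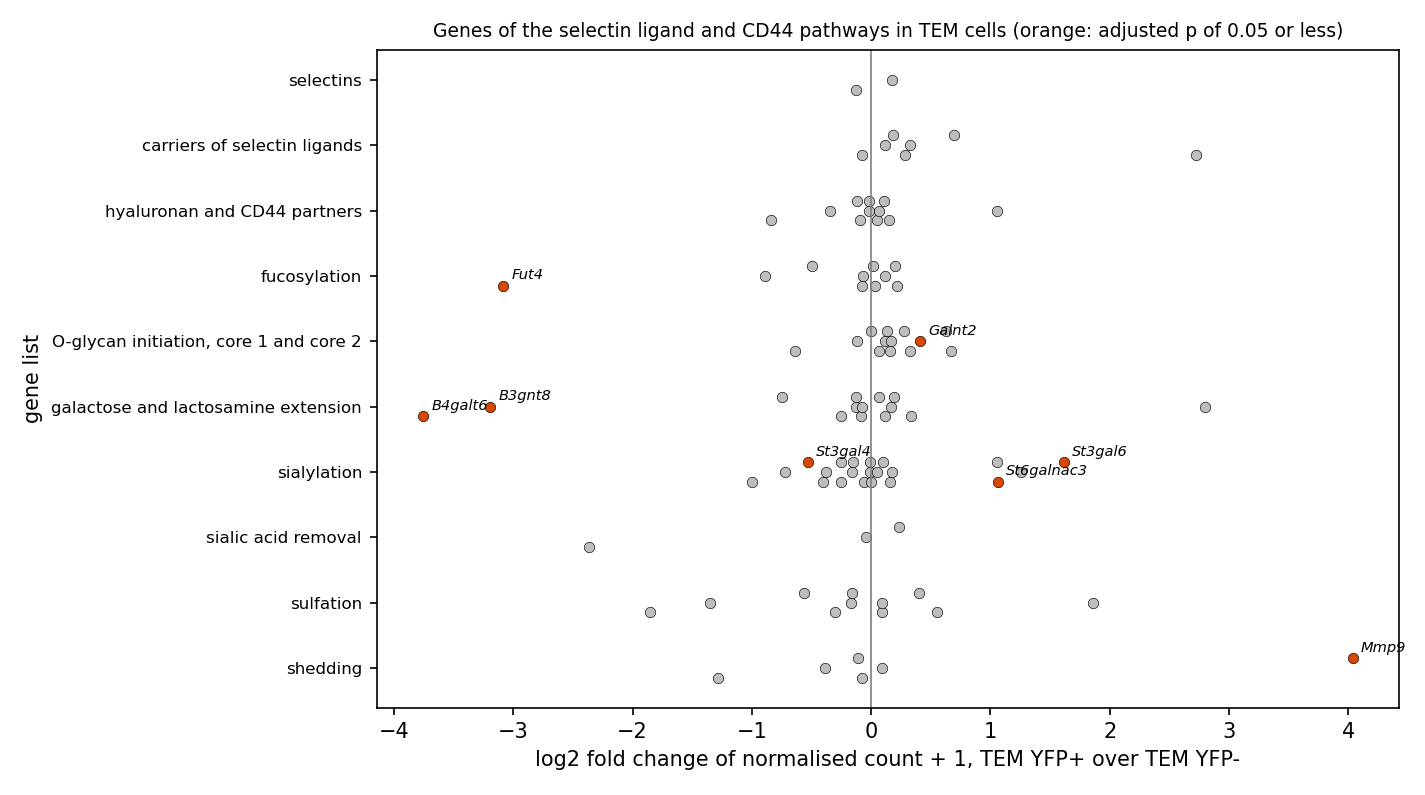
Log2 fold change of TEM YFP+ over TEM YFP- (x axis) of every tested gene on the 10 pathway lists (y axis), the 7 genes included; orange points passed an adjusted p of 0.05. The fold changes run from -3.76 for B4galt6 to 4.04 for Mmp9, and most points lie near 0.

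Between TEM and naïve cells, 41 of the 91 list genes were higher and 18 lower in YFP- cells, and 38 were higher and 14 lower in YFP+ cells. Over all genes tested 49.8% passed in YFP- cells, 4665 higher and 3104 lower, and 41.4% in YFP+ cells, 3849 higher and 2604 lower. The counts of the single lists have the same background. The median log2 difference was 0.37 and 0.32, against 0.05 and 0.03 over all genes tested. Chst2, a sulfotransferase of selectin ligands, was among the higher ones, with 28.6 to 31.1 normalised counts in naïve YFP- and 4430 to 5236 in TEM YFP- libraries (7.28, SE 0.38). Of 11 genes tested on the sulfation list, 7 were higher and 1 lower in YFP- cells, and 4 higher and 1 lower in YFP+ cells. The higher ones include Sulf2 (6.74 in YFP- and 7.18 in YFP+ cells), which encodes a sulfatase and not a sulfotransferase. Of 13 tested genes for O-glycan initiation and branching, 2 were higher and 6 lower in YFP- cells, the higher ones being the branching enzymes Gcnt1 and Gcnt2. All of the 5 shedding genes that passed, of 6, were higher in both fractions.

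The genes whose log2 counts followed each member most closely over the 12 libraries are given as a description, among 11686 genes. St3gal6 was followed by Gpc1 (Pearson r = 0.977) and Gab3 (0.973), and St3gal4 by Sox12 (0.990) and Pdxk (0.977). Gcnt1 was followed by Dtl (0.998) and Kif4 (0.995), and Fut7 by Ube2c (0.994) and Hmgn3 (0.991). Cd44 was followed by Hopx and Rab8b (0.998 each), Selplg by Wdr82 (0.986) and Etv3 (0.974), and St6gal1 by Atp6ap2 (0.965) and Gpat4 (0.958). The 12 points fall into TEM and naïve libraries, so any gene that separates these gates correlates with Cd44, Gcnt1 and Fut7.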

How the data were processed

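Libraries were made from 3 samples per group with a stranded total RNA kit. The authors mapped reads to mm10 with DRAGEN, counted them on genes with Rsubread and deposited normalised counts, a signal of reads divided by DESeq2 size factors. The annotation, strand setting and tool versions are not given in the sources used here. All 12 columns were used (0 left out). Whole reads were recovered from 100% of values (tolerance 0.001).

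Values were compared as log2(normalised count + 1) with limma 3.58.1 under R 4.3.3, using a mean per group, a variance trend and 8 residual degrees of freedom. Genes with at least 5 normalised counts in 3 libraries were kept (15587), and p-values were adjusted by Benjamini-Hochberg over all of them with a threshold of 0.05. The test was checked on simulated data in which the naïve and TEM YFP- libraries shared the same mean per gene. That check does not cover genes near 0 in naïve cells alone, such as Gcnt1 and Fut7. Exact permutation of 3 against 3 libraries cannot go below 0.10. Alternatives used edgeR 4.0.16 and DESeq2 1.42.0 on recovered reads, other pseudocounts, filters, normalisations and fits, and each library left out.

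All members, the genes of 10 pathway lists that passed (at most 3 per list and comparison, by fold change) and the 2 most correlated genes per member were named; 1 gene of the lists is not reported here and left out of their counts and plots. Members and lists were chosen with earlier results of these data known. Replicates of a group differed by 37.0 to 81.0 chi-square units per degree of freedom, so none was a copy. The study describes spleens of 3 mice, but no label ties a library to a mouse, so p-values measure the spread between these samples. Deviations of same-numbered YFP+ and YFP- libraries correlated at 0.306, 0.491 and 0.360 in naïve and 0.180, 0.338 and 0.356 in TEM cells, so the numbers were taken as pairs there. TEM and naïve YFP- libraries met the same rule (0.168, 0.137 and 0.232). The block left 4 of 6 members called there, while over all genes 9100 passed in place of 7769. TEM and naïve YFP+ libraries did not (0.204, -0.020 and 0.056), which does not show that they are unpaired.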

Additional observations from a re-analysis of the deposited data

Results flagged for a closer look

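The effect of YFP status on St3gal6 differed between the gates by the interaction test: it was 1.61 in TEM cells and 0.20 in naïve cells on the log2 scale, a difference of 1.42 (SE 0.30, adjusted p = 0.0219, limma). All 3 TEM pairs and all 3 naïve pairs were higher in YFP+ cells. Groups of 3 libraries are too small for a test of outlying samples.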

How the results depend on the processing

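The calls of St3gal6 and St3gal4 between the TEM fractions held in all 24 settings. The number of the 7 genes called there was 2, 3 under quantile normalisation (with St6gal1) and in the fit of the 6 TEM libraries alone (with Gcnt1), and 4 under DESeq2 with the replicate block. Over all genes 1087 were called as reported and 1492 under quantile normalisation. The fit of the 6 TEM libraries called 1391 and DESeq2 with the replicate block 2411. In the interaction the count of 1 became 0 without the variance trend and 2 under DESeq2 with the replicate block. It was 0 to 1 when single libraries were left out (0 without naïve YFP- replicate 1 or 3, TEM YFP- replicate 3 or TEM YFP+ replicate 3). Over all genes the interaction called 554 as reported, 441 without the variance trend and 1238 under DESeq2 with the replicate block. With single libraries left out it called 279 to 531. In limma the replicate block changed no call of the 7 genes between YFP fractions. Same-numbered TEM and naïve YFP+ libraries were not taken as pairs, since their deviations correlated at only 0.204, -0.020 and 0.056. This does not show that they are unpaired. In that comparison the block raised the count from 4 to 5 by adding Selplg (adjusted p = 0.0328, limma). Over all genes the block raised the count there from 6453 to 7954. Some differences that did not pass as reported changed sign. Between naïve fractions, leaving out single libraries gave log2 differences from -0.069 to 0.20 for Cd44, -0.075 to 0.16 for Selplg, -0.61 to 0.46 for Fut7, -0.35 to 1.11 for Gcnt1 and -0.19 to 0.096 for St6gal1. That of Fut7 was 0.026 with edgeR, 0.035 with DESeq2 and 0.055 with DESeq2 and the replicate block. The interaction of Fut7 was 0.066 under quantile normalisation and -0.95 to 0.11 without single libraries. For St6gal1, TEM against naïve was -0.018 to 0.23 in YFP- cells, -0.23 to 0.030 in YFP+ cells and -0.071 to 0.064 averaged when single libraries were left out, and under quantile normalisation 0.0059 in YFP+ cells and 0.15 averaged, the last past the threshold (adjusted p = 0.046). The cause was not tested. Fut7 and Gcnt1 in naïve libraries rest on few reads, so depth limits their folds.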
